A study of Mus musculus with 6 samples.

Results

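Potassium channel genes were followed in mouse dorsal root ganglia, where the cell bodies of sensory neurons lie, after ischemia and reperfusion (I/R) of the kidney. All rows of the deposited table whose gene symbol starts with Kcn were taken, and the symbols that start with Kcnk, the two-pore channels, were left out. This gave 85 of 57180 rows, of which 70 passed the filter on low counts and were tested. The rows were picked by name and not by value, but the family was chosen with earlier results of these data known. The ganglia, from thoracic level 8 to lumbar level 2, came from wild-type mice, 3 per group, and were collected 24 h after surgery. In the I/R group the left renal pedicle, the stalk of vessels and nerves of the kidney, was clamped for 28 min and released, and the right kidney was removed. The sham group had the same operation without the clamp, per the labels, which do not state removal of the right kidney for it separately. Age, sex and strain are not given in the labels used here. Whole ganglia were sequenced, so neurons that do not reach the kidney, glia, vessel cells and connective tissue contribute to every value.

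Potassium channels let potassium leave the cell, which brings the membrane back after an action potential and limits how often a sensory neuron fires. Their pore subunits assemble in complexes with silent partners and with auxiliary subunits that set gating and transport to the membrane. In models of direct injury to peripheral nerves, lower transcript levels of several of these genes in sensory ganglia are well known, which is background and not a result of these data.

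The libraries held 19092650 to 22010227 estimated counts. Markers of skeletal muscle, a tissue beside the ganglia, summed to 477, 20.3 and 245 CPM (counts scaled to a common library size) in sham. In I/R they summed to 7.91, 14.7 and 11.6 CPM. A fit with sham 2 as the only sham library has no replicate in sham. The absence of calls in such a fit cannot show that muscle transcripts leave the Kcn results unaffected. By these markers sham 1 and sham 3 stood apart. Results were therefore also computed with sham 2 alone against I/R, where 0 Kcn genes were called and 7 (9.46%, beside 7.07% of all genes) had an unadjusted p under 0.05.

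None of the 70 tested Kcn genes passed the test at 24 h. With edgeR's quasi-likelihood test 0 were called at an adjusted p under 0.05. Of all 16346 tested genes 1.15% were called, 0.722% higher and 0.428% lower in I/R. At that share a list of 70 genes can hold 0 calls, so the absence of calls is not a trait of the Kcn genes. DESeq2 and limma-voom also called 0 Kcn genes, beside 1.91% and 1.08% of all genes. An unadjusted p under 0.05 was reached by 10 Kcn genes in edgeR, 7 in DESeq2 (8.04% of all genes) and 10 in limma-voom (10.5% of all genes). The smallest adjusted p in edgeR's test was 0.14, for Kcnmb1. In all 15 alternatives 0 Kcn genes were called, where 0.185% to 1.91% of all genes were. The lowest of these shares was that of sham 2 alone against I/R, a fit with no replicate in sham. The median log2 fold change of the 70 genes was -0.020, beside 0.00013 over all tested genes, and 32 lay above 0 and 38 below. Their median absolute log2 fold change was 0.14, beside 0.13 over all tested genes. The 6 axon injury genes set beside them (Atf3, Sprr1a, Gal, Sox11, Ecel1 and Csf1) were chosen with earlier results of these data known. All 6 were higher in the same libraries, which is therefore a description and not an independent check. Atf3 had a log2 fold change of 3.79 ± 0.13 (SE, adjusted p = 6.1e-07).

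The precision differed with the level. Values of 3 libraries are listed in replicate order. Levels are in CPM, scaled by the trimmed mean of M values (TMM), and those compared between genes in CPM per kilobase of the gene length in the table. Of 41 tested Kcn genes that averaged 10 CPM or more, all 41 had a 95% interval of the fold change inside 2-fold in either direction, and 38 had one inside 1.5-fold. The bounds of these 41 ran from 0.643 to 1.54 times the sham level. Of the 29 genes below that level, 24 had an interval inside 2-fold and 6 one inside 1.5-fold. The 5 genes whose interval reached beyond 2-fold were Kcnj13, Kcnh4, Kcnmb4os2, Kcne1l and Kcne4. In counts simulated with known changes over 16154 genes, edgeR's test recovered 34.3% of 1.5-fold and 80.6% of 2-fold changes among genes above 1 CPM on average. A change under 2-fold could therefore be missed, and so could some changes of 2-fold. Changes in genes under 1 CPM were not simulated.

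**Figure D1:**
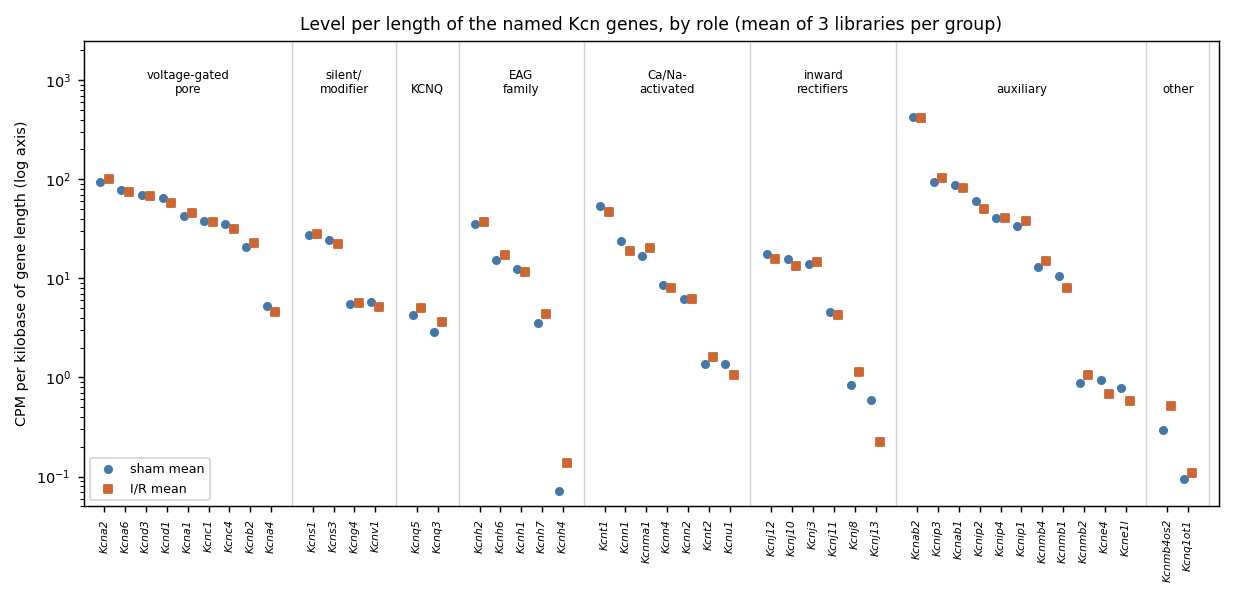
Mean level of 46 named Kcn genes in CPM per kilobase of gene length (log axis), grouped by role, with circles for sham and squares for I/R (mean of 3 libraries each). Kcnab2 stands highest at 416 CPM per kilobase over all libraries, and the circles and squares of most genes lie side by side.

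Kcn transcripts made up 0.553% to 0.648% of the total of a library after TMM scaling. Kcnab2, the beta subunit of the Shaker-type channels, held 24.5% to 26.9% of the summed Kcn level in each library. Per length it stood at 416 CPM per kilobase, followed by Kcna2 at 97.8, Kcnip3 at 97.4, Kcnab1 at 84.5 and Kcna6 at 76.1 CPM per kilobase. The next 5 were Kcnd3 at 68.9, Kcnd1 at 60.7, Kcnip2 at 55.2, Kcnt1 at 49.8 and Kcna1 at 44.2 CPM per kilobase. The lowest tested gene by this measure was the long noncoding Kcnq1ot1 at 0.102 CPM per kilobase.

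The pore subunits of the Kv1 to Kv4 channels, the core of the delayed and A-type currents, held the highest levels among pore genes. Of 17 such rows 14 were tested, 6 above 0 and 8 below, with a range of log2 fold changes from -0.21 to 0.16. Kcna2, the Kv1.2 subunit of the current beside the node of Ranvier, stood at 419, 407 and 416 CPM in sham and at 417, 414 and 491 CPM in I/R. The groups overlapped, and I/R 3 was above the rest. Its log2 fold change was 0.091 ± 0.095 (SE, adjusted p = 0.80), with an interval of 0.920 to 1.23 times the sham level.

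Kcna1, the Kv1.1 subunit that joins Kcna2 in those channels, had 171, 181 and 161 CPM in sham and 174, 196 and 187 CPM in I/R, and its groups overlapped (interval 0.943 to 1.25 times sham). Kcna6, a Kv1.6 subunit, differed by -0.096 ± 0.107 (adjusted p = 0.81), but its counts were not whole numbers in all 6 libraries, and how the fractions arose was not tested. Kcna4, the Kv1.4 subunit of fast inactivating currents in small neurons, stood at 23.2, 25.6 and 27.7 CPM in sham and 21.9, 23.0 and 21.1 CPM in I/R. All 3 I/R values of Kcna4 lay below the sham values, with a log2 fold change of -0.21 ± 0.11 and an adjusted p of 0.54.

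Kcnb2, which encodes the delayed rectifier Kv2.2, differed by 0.12 ± 0.13. Among the fast Kv3 genes, Kcnc1 stood at 120 ± 14.1 CPM in sham and 117 ± 5.16 in I/R (SD, n = 3 per group), and Kcnc4 differed by -0.17 ± 0.12. Among the Kv4 genes, which carry the A-type current of nociceptors, Kcnd1 had 340 ± 43.8 CPM in sham and 302 ± 37.8 in I/R. Kcnd3 had 186 ± 11.3 and 182 ± 25.2 CPM. Within the pore group, Kcna2 made up 18.6% ± 1.36 of the summed level per kilobase in sham and 20.0% ± 1.37 in I/R, and Kcnd1 12.6% ± 0.858 and 11.3% ± 0.589 (SD, n = 3).

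Silent subunits form no channel alone and modify Kv2 channels. Of 10 rows 9 were tested, 4 above 0 and 5 below, between -0.40 and 0.11. Kcns1, a modifier whose variants are known in relation to pain, stood at 83.2, 78.9 and 62.2 CPM in sham and 85.9, 80.8 and 62.9 CPM in I/R. The values covered the same range in both groups, and the log2 fold change was 0.033 ± 0.145 (adjusted p = 0.96). Kcns3 had 57.2, 57.5 and 53.0 CPM in sham and 50.5, 52.3 and 52.0 CPM in I/R. Its groups did not overlap, with a difference of -0.12 ± 0.09 (adjusted p = 0.71). Kcnv1 differed by -0.17 ± 0.10 and Kcng4 by 0.03 ± 0.10.

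The KCNQ genes include those for the subunits of the M-current, a slow brake on repetitive firing. All 5 genes with a Kcnq name, not all of them M-current subunits, were tested, and 4 lay above 0. Kcnq3 stood at 32.2, 34.5 and 35.8 CPM in sham and 37.6, 40.3 and 51.7 CPM in I/R. All I/R values lay above all sham values, and I/R 3 was apart from the others. The log2 fold change was 0.34 ± 0.13 (adjusted p = 0.37), and 0.19 to 0.43 in the fits that left out 1 library each.

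Kcnq5, another M-current subunit, had 29.9, 31.3 and 28.6 CPM in sham and 30.6, 36.2 and 39.3 CPM in I/R, so I/R 1 lay inside the sham range (0.24 ± 0.11, adjusted p = 0.51).

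Of the 8 EAG family genes, which include the ERG channels, all 8 were tested and 5 lay above 0. Kcnh2, the ERG1 channel and the highest of them by level per kilobase, had 168, 163 and 115 CPM in sham and 152, 167 and 149 CPM in I/R (0.070 ± 0.141, adjusted p = 0.89). Without sham 3 its value was -0.087. Kcnh6 and Kcnh1 differed by 0.16 and -0.083, and Kcnh7 by 0.29 ± 0.14 (adjusted p = 0.50). Kcnh4 had the widest interval, 0.770 to 4.66 times the sham level, on 51 counts over all 6 libraries.

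The Kcnma, Kcnn, Kcnt and Kcnu genes were grouped by name, as the family of channels gated by calcium or sodium inside the cell. The name does not show that every member, such as Kcnu1, is gated in that way. Of these genes 8 of 8 were tested. An unadjusted p under 0.05 was reached by 3 (37.5%), Kcnu1 among them, beside 10.5% of all tested genes. Kcnma1, the pore of the large-conductance BK channel, stood at 61.2, 60.3 and 65.8 CPM in sham and 69.4, 73.1 and 87.0 CPM in I/R. Every I/R value was above every sham value, with a log2 fold change of 0.29 ± 0.11 (adjusted p = 0.36). Its counts were not whole in any of the 6 libraries. Kcnn1, the SK1 small-conductance channel that follows the action potential with a slow hyperpolarization, had 75.4, 73.7 and 64.2 CPM in sham and 55.6, 62.3 and 51.6 CPM in I/R. All I/R values were lower, by -0.33 ± 0.11 (adjusted p = 0.27).

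Set side by side within the group, Kcnma1 made up 15.0% ± 2.48 of the level per kilobase in sham and 19.7% ± 2.17 in I/R, and Kcnn1 21.4% ± 0.649 and 18.4% ± 1.57. Kcnt1, the sodium-activated Slack channel and the largest share, stood at 337, 352 and 250 CPM in sham and 238, 300 and 280 CPM in I/R. Its groups overlapped through sham 3 (-0.20 ± 0.14, adjusted p = 0.68). Its relative Kcnt2 differed by 0.26 ± 0.15, Kcnn4, the intermediate-conductance channel, by -0.099 ± 0.121 and Kcnn2, the SK2 channel, by 0.014 ± 0.160. Kcnu1, a BK relative known from sperm, was listed at 5.16, 4.40 and 4.89 CPM in sham and 3.51, 4.07 and 3.56 CPM in I/R (-0.37 ± 0.16, adjusted p = 0.45).

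**Figure D2:**
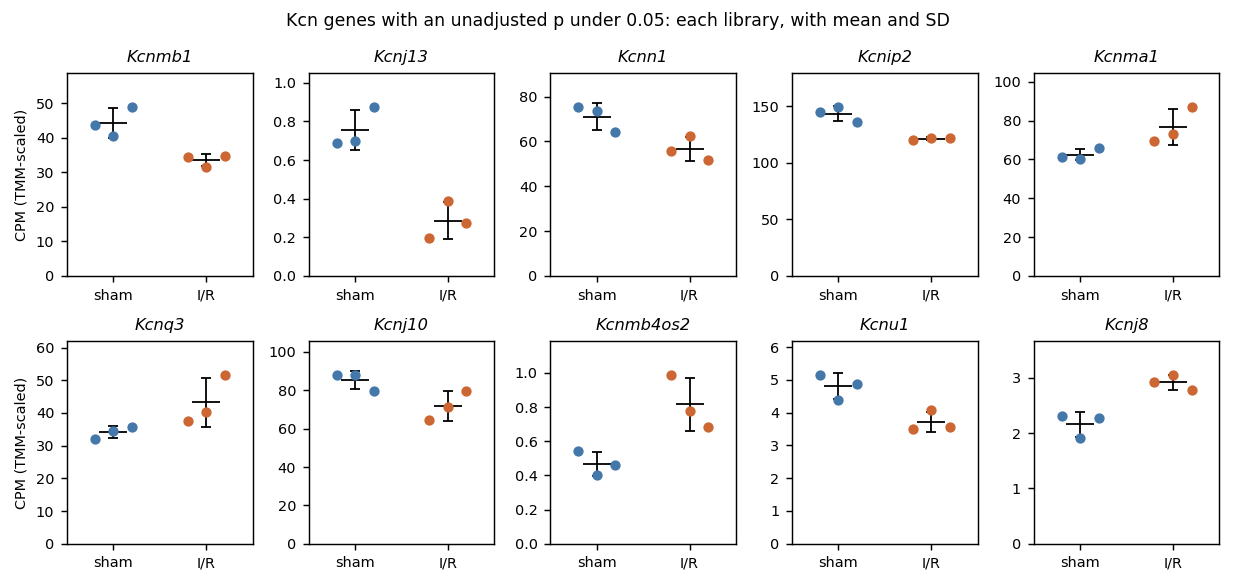
Level of the 10 Kcn genes that edgeR gave an unadjusted p under 0.05, in TMM-scaled CPM on an axis from 0, with 1 point per library and the mean and SD of each group (n = 3). The sham and I/R points of each gene do not overlap, Kcnj10 by the narrowest gap (79.86 against 79.85 CPM), and no gene passed after adjustment.

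Inward rectifiers hold the resting potential and, in glia, take up potassium released by neurons. Of 15 rows 12 were tested, 3 above 0 and 9 below. Kcnj10, the Kir4.1 channel of satellite glia, stood at 88.0, 87.9 and 79.86 CPM in sham and 64.5, 71.1 and 79.85 CPM in I/R. The groups were separated by the smallest margin, and the log2 fold change was -0.25 ± 0.11 (adjusted p = 0.45). Of 6 satellite glia markers 1 was called, Fabp7, which fell (-0.99 ± 0.16, adjusted p = 0.019), while Glul stood 0.32 higher. Summed, these markers ranged from 2863 to 3155 CPM in sham and 2220 to 3194 CPM in I/R. Summed Schwann cell markers stood at 6460 to 6744 CPM in sham and 5473 to 6162 CPM in I/R, with 0 of 6 called in any of the 3 tools and 3 at an unadjusted p under 0.05. Of 6 markers of spinal cord oligodendrocytes and astrocytes, cells in which Kir4.1 is also known, 4 were tested and 0 were called in any of the 3 tools. Mobp and Gfap had an unadjusted p under 0.05 in edgeR, with log2 fold changes of -2.10 ± 0.53 (adjusted p = 0.12) and -1.58 ± 0.52 (adjusted p = 0.27), while Aqp4 differed by 0.037 ± 0.206. Summed, this list stood at 170 to 207 CPM in sham and 151 to 175 CPM in I/R, and Opalin, which did not pass the filter, had 0 counts in every I/R library. This spinal cord sum was mostly Mal, with a mean of 164 CPM (sham) and 154 CPM (I/R), and says little about the other members. The mean of Mobp went from 11.5 to 2.68 CPM and that of Gfap from 8.17 to 2.73 CPM, with overlapping groups. The satellite glia sum was mostly Apoe, with a mean of 2237 CPM (sham) and 1939 CPM (I/R). The part of satellite glia, Schwann cells, oligodendrocytes or astrocytes in the Kcnj10 values was not tested. In whole ganglia fewer cells of a type and less RNA per cell cannot be told apart.

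Kcnj13, the Kir7.1 channel known from the choroid plexus and the retinal pigment epithelium, had the lowest log2 fold change of the family, -1.38 ± 0.39. It was a rare transcript, with 0.687, 0.700 and 0.874 CPM in sham and 0.198, 0.387 and 0.274 CPM in I/R, and rested on 63 counts over all libraries. The groups did not overlap (adjusted p = 0.18). All 7 meningeal and fibroblast markers, a list chosen with earlier results of these data known, fell in the same libraries. Their summed level was 677 to 821 CPM in sham and 342 to 402 CPM in I/R. Their part in the Kcnj13 values was not tested.

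Kcnj8, the Kir6.1 channel of vessel wall cells, stood at 2.31, 1.90 and 2.26 CPM in sham and 2.92, 3.05 and 2.78 CPM in I/R (0.43 ± 0.19, adjusted p = 0.47). Its sulfonylurea receptor partner Abcc9 differed by 0.19 ± 0.19. Kcnj11, the Kir6.2 channel that closes with ATP, differed by -0.11 ± 0.14, and its partner Abcc8 by -0.14 ± 0.16. Kcnj12, the highest inward rectifier by level per kilobase, had 48.2, 46.1 and 34.9 CPM in sham and 32.3, 44.0 and 40.0 CPM in I/R. Kcnj3, a G protein-gated channel opened by inhibitory receptors, differed by 0.067 ± 0.099. Skeletal muscle also makes Kcnj11 and Kcnj12, and the part of the muscle transcripts of sham 1 and sham 3 in these values was not tested.

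Auxiliary subunits included both the most abundant Kcn gene and the gene with the smallest p. Of 16 rows 12 were tested, 5 above 0 and 7 below. Kcnab2 stood at 1681, 1746 and 1376 CPM in sham and 1504, 1668 and 1525 CPM in I/R. The ranges overlapped, and the interval was 0.829 to 1.15 times the sham level. Kcnab1 differed by -0.11 ± 0.10 (adjusted p = 0.75).

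Kcnmb1, the beta-1 subunit that raises the calcium sensitivity of BK channels and is known from smooth muscle, stood at 43.7, 40.4 and 48.9 CPM in sham and 34.5, 31.5 and 34.6 CPM in I/R. All I/R values were below all sham values. The log2 fold change was -0.40 ± 0.10, an interval of 0.643 to 0.889 times sham, and the adjusted p was 0.14 in edgeR's test and 0.074 in DESeq2. Without any 1 library the value stayed between -0.47 and -0.33. Of 5 markers of smooth muscle and pericytes edgeR called 0, as did limma-voom and DESeq2, and 0 had an unadjusted p under 0.05. All 5 log2 fold changes lay below 0, between -0.18 and -0.0085. Their summed level overlapped, at 239 to 258 CPM in sham and 227 to 260 CPM in I/R. This sum was mostly Rgs5, with a mean of 138 CPM (sham) and 137 CPM (I/R), and says little about the other markers. The part of smooth muscle cells or pericytes in the Kcnmb1 values was not tested. Kcnmb4, the neuronal BK beta subunit, was named after its values were seen and stood at 18.1, 16.8 and 18.3 CPM in sham and 20.7, 21.1 and 19.3 CPM in I/R (0.20 ± 0.10, adjusted p = 0.56). Kcnmb2 differed by 0.27 ± 0.21.

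The KChIP genes encode calcium-binding partners of Kv4 channels. Kcnip2 stood at 145, 149 and 136 CPM in sham and 120, 122 and 122 CPM in I/R, with all I/R values lower and close together (-0.24 ± 0.09, adjusted p = 0.32). Kcnip3, also known as the transcriptional repressor DREAM, had 267, 269 and 223 CPM in sham and 256, 289 and 290 CPM in I/R (0.14 ± 0.10, adjusted p = 0.71). Kcnip1 differed by 0.17 ± 0.11. Kcnip4 differed by -0.019 ± 0.135 in the fit of all libraries and by 0.15 without sham 3, where it was highest (117 CPM).

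Promoter sequences from RefSeq (GRCm38.p6, 250 bases before to 50 after a start site) were at hand for 61 of the 85 genes, as 82 sequences. They were searched on both strands for the AP-1 letters TGANTCA, because Atf3 belongs to the family of factors that share this site, and for the CRE letters TGACGTCA. The AP-1 letters occurred in 3 of the 82 sequences (3.66%), beside 7.81% of all 32851 promoter sequences of the same length, and the CRE letters in 0 of 82, beside 1.79%. The shorter string is not contained in the longer. The 3 sequences belong to Kcnip3, Kcnip4 and Kcne3, and Kcne3 did not pass the filter. Shown are bases -150 to -51 of the other two, both on the minus strand, with the AP-1 letters in capitals, because these tested genes carry the letters of a site read by an injury-induced factor. The Kcnip3 window is chr2:127522145-127522244 with the match at -122 to -116, and the Kcnip4 window is chr5:49285710-49285809 with the match at -82 to -76.
Kcnip3: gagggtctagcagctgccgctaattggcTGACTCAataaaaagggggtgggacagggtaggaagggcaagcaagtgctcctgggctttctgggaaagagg
Kcnip4: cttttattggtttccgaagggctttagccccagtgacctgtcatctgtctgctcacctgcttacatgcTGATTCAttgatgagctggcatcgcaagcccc
Neither gene passed the test. The matches are descriptions of these windows and not evidence of binding.

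Rows that are no channel subunit included antisense and overlapping transcripts, and 2 of 6 such rows were tested. Kcnmb4os2, a transcript on the strand opposite Kcnmb4, stood at 0.540, 0.400 and 0.463 CPM in sham and 0.989, 0.775 and 0.684 CPM in I/R (0.79 ± 0.34, adjusted p = 0.45). It rested on 79 counts, and the counts of both genes were not whole in all 6 libraries. Because the strand setting of the counting is not given in the sources used here, reads of the pair cannot be told apart. Kcnq1ot1, the long noncoding transcript over Kcnq1, differed by 0.21 ± 0.17. The 15 rows that were not tested held 0 to 63 counts summed over the 6 libraries. Kcnj1, the renal ROMK channel, had 0 counts in each, which allows up to 0.137 to 0.154 CPM per library, for counting error only.

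**Figure D3:**
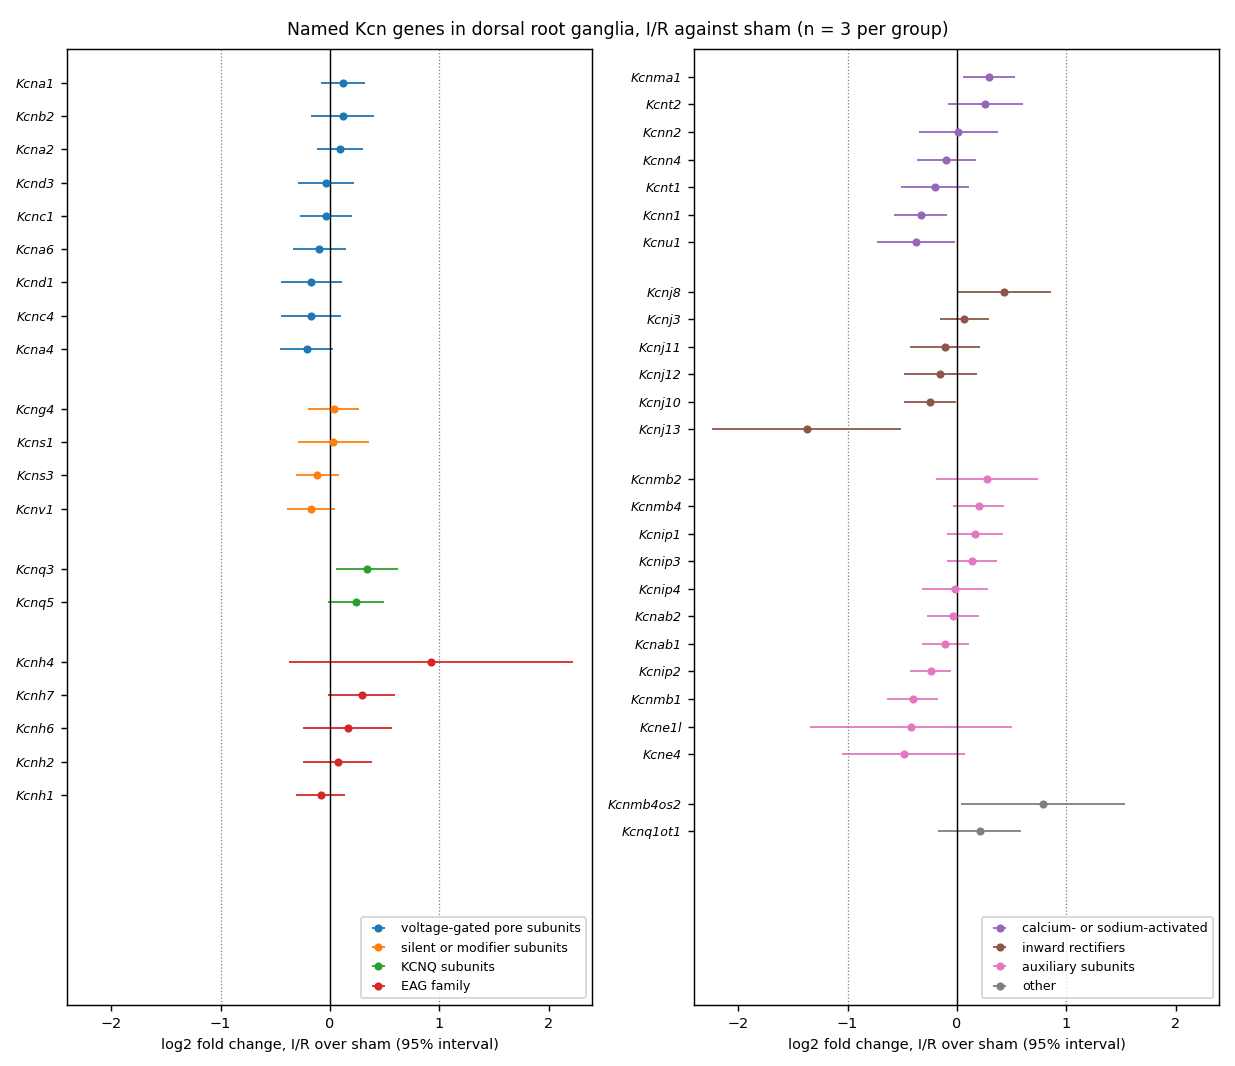
Log2 fold change, I/R over sham, of 46 named Kcn genes (x axis; bars are 95% intervals from edgeR's test, n = 3 per group), grouped by role and sorted within each. Dotted lines mark 2-fold; most intervals include 0 and only 5 reach past a dotted line.

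In all, 10 of the 70 genes (14.3%) had an unadjusted p under 0.05, 4 higher (Kcnma1, Kcnq3, Kcnmb4os2 and Kcnj8) and 6 lower (Kcnmb1, Kcnj13, Kcnn1, Kcnip2, Kcnj10 and Kcnu1) in I/R. Over all tested genes the share was 10.5%, 5.7% higher and 4.8% lower. The groups did not overlap for 18 of the 70 genes (25.7%), 7 higher and 11 lower, beside 17.1% of all tested genes, 9.23% higher and 7.83% lower. The count of 10 fell to 3 without sham 1 (4.23%, beside 7.54% of all genes), to 4 without sham 2 (5.63%, beside 8.1%) and to 6 without I/R 3 (8.57%, beside 8.85%). It was 13 without sham 3 (18.6%, beside 13.2%), 7 without I/R 1 (9.86%, beside 13.6%) and 8 without I/R 2 (11.3%, beside 8.32%). Whether the shares differ from those of other genes was not tested.

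**Figure D4:**
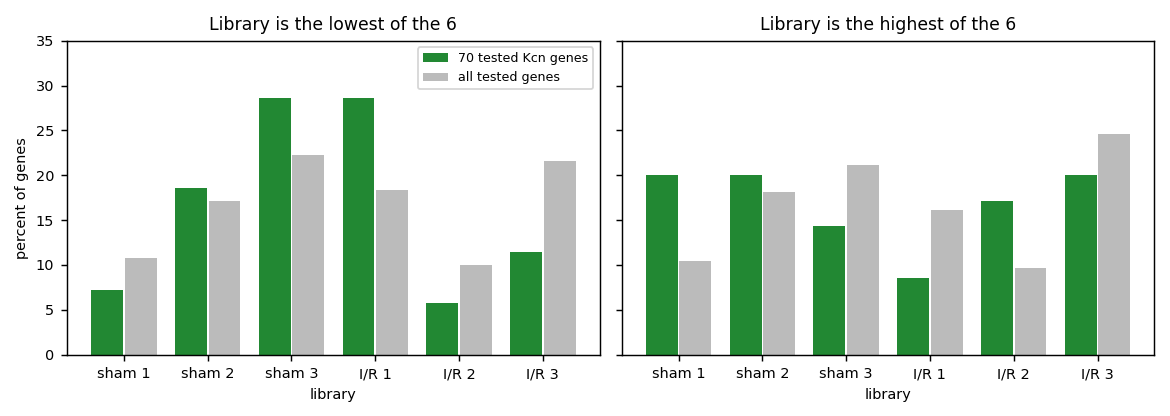
Percent of genes for which each library (x axis) holds the lowest (left) or the highest (right) of the 6 levels, with green bars for the 70 tested Kcn genes and grey bars for all tested genes. Sham 3 and I/R 1 each hold the lowest level for 28.6% of the Kcn genes.

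Libraries within a group differed. Sham 3 held the lowest level for 20 of the 70 genes (28.6%, beside 22.2% of all tested genes), and I/R 1 also for 20 (beside 18.3%). The summed Kcn level was 6321, 6482 and 5527 CPM in sham and 5660, 6238 and 6222 CPM in I/R, so the lowest library of each group stood apart and the groups overlapped. The median Kcn gene of sham 3 stood 0.086 below its group's mean on the log2 scale and that of I/R 1 stood 0.061 below. Summed sensory neuron markers were 14870, 14750 and 13460 CPM in sham and 14970, 15270 and 13960 CPM in I/R. All 11 of these markers were detected, and edgeR called 0, as did limma-voom and DESeq2, with 1 at an unadjusted p under 0.05.

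Genes that work with these channels were counted in the same way. Of 25 tested partners, 0 were called and 0 had an unadjusted p under 0.05, with edgeR, DESeq2 and limma-voom alike. Among them were the Kv4 partners Dpp6 and Dpp10, the Kv2 partner Amigo1 and the Kv1 scaffold gene Cntnap2. Over all tested genes edgeR called 1.15%, a share at which so short a list can hold 0 calls, and 10.5% had an unadjusted p under 0.05. The groups did not overlap for 3 partners (12%), all higher in I/R, beside 17.1% of all tested genes. Dpp6 and Dpp10 differed by 0.015 ± 0.111 and 0.065 ± 0.108, Amigo1 by -0.042 ± 0.083 and Cntnap2 by 0.069 ± 0.087. Of 9 regulators known to act on potassium channel transcription, 0 were called and 0 had an unadjusted p under 0.05 with the same tools. That list is shorter still, so its 0 calls are also near the share over all genes. Rest, a repressor of neuronal genes, stood at 10.1, 10.9 and 8.79 CPM in sham and 11.2, 9.64 and 11.2 CPM in I/R. Ehmt2, a histone methyltransferase, differed by -0.11 ± 0.11.

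In the other channel families counted, Kcnk, Cacn and Scn, 0 or 1 gene was called, beside 1.15% of all tested genes. Of 12 tested Kcnk two-pore genes 1 was called, Kcnk16, which rose from 0.295, 0.150 and 0.566 CPM in sham to 4.20, 2.95 and 3.42 CPM in I/R (adjusted p = 0.0016). Of 22 Cacn calcium channel genes 1 was called, and of 14 Scn sodium channel genes 0 in edgeR, limma-voom and DESeq2. In edgeR 3 genes of each family had an unadjusted p under 0.05. These were 25% of Kcnk, 13.6% of Cacn and 21.4% of Scn genes, beside 10.5% of all tested genes. These counts were not tested against that of the Kcn genes.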

How the data were processed

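Dorsal root ganglia of 3 sham and 3 I/R mice were profiled by RNA sequencing, 1 library per mouse, from TRIzol RNA with a stranded Illumina mRNA kit per the labels' protocols. The programs fastp, HISAT2 and StringTie and the build GRCm39 appear in the submitters' processing notes without role or version. For the counting program and its strand setting, nothing was found in the labels or the file headers. The values are estimated counts per gene as the authors deposited them, with 57180 genes and no scaling to depth. In each library 10.7% to 11.5% of values were not whole, and all were rounded before testing.

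Library totals ran from 19092650 to 22010227. Genes were tested with edgeR 4.0.16 (quasi-likelihood, TMM, filterByExpr, 16346 genes kept) in R 4.3.3, with Benjamini-Hochberg adjustment over all genes kept and calls at an adjusted p under 0.05. SE and 95% intervals come from the F statistic. Shares and levels per kilobase use the authors' deposited gene length. The biological coefficient of variation was 13.2%. On simulated counts 7.14% of calls were of unchanged genes, and the intervals held the true value for 95.4% of genes. These counts were drawn with the spread fitted to these data, and most genes were left unchanged. They therefore cannot show how the intervals hold in the real libraries. Alternatives used DESeq2 1.42.0, limma 3.58.1 (voom), other normalizations and filters, a replicate block, and left-out libraries. No pair of libraries of a group agreed within sampling noise (chi-square per degree of freedom 4.11 to 30.5).

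The members and lists were chosen with earlier results of these data known. Named genes are those with an unadjusted p under 0.05, the 10 highest per kilobase, the highest of each role, and a list of channel genes; some of these genes are not reported here. Kcnmb4, Kcnh1, Kcnh4, Kcnh6, Kcnh7, Kcnc4, Kcnb2, Kcnj3, Kcne1l, Kcne4, Kcnv1, Kcng4, Kcnn2, Kcnmb2, Kcnq1ot1 and Kcnj1 were added after their values were seen.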

Additional observations from a re-analysis of the deposited data

How the results depend on the processing

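No Kcn gene was called in any of the 15 alternatives, where the smallest adjusted p was 0.074 (Kcnmb1 in DESeq2). The count of calls over all genes, 188, was 312 in DESeq2, 494 with no filter on low counts, 63 with the replicate block and 32 with sham 2 alone against I/R, and ranged from 87 to 181 in the fits that left out 1 library each. The cause was not tested. The Kcn genes with an unadjusted p under 0.05, 10 with all libraries, were 3 to 13 in those fits and 8 with the replicate block (11.4%, beside 10.1% of all genes). Whether the replicate numbers pair the mice is not known. Same-numbered libraries deviated together with correlations of -0.17, 0.24 and -0.18, and differently numbered ones with -0.33 to 0.40. With 3 libraries per group these values cannot decide it.

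Of 687 alternative values of 46 named genes, 23 had the other sign, all of them in 9 genes that were never called. Leaving out 1 library gave -0.13 to 0.034 for Kcnab2, -0.12 to 0.046 for Kcnc1, -0.13 to 0.072 for Kcnd3, -0.019 to 0.062 for Kcng4, -0.087 to 0.17 for Kcnh2, -0.0099 to 0.31 for Kcnh6, -0.10 to 0.15 for Kcnip4, -0.13 to 0.10 for Kcnn2 and -0.083 to 0.16 for Kcns1. Sham 2 alone against I/R gave -0.045 for Kcng4, -0.084 for Kcnh2, -0.11 for Kcnh6, 0.11 for Kcnip4, -0.092 for Kcnn2 and -0.066 for Kcns1. A CPM of at least 1 in 3 libraries gave -0.0014 for Kcnn2. Depth limits the genes under 1 CPM, such as Kcnj13 and Kcnh4.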
